A study of Drosophila melanogaster with 6 samples.

Results

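The proteasome subunit genes of *Drosophila melanogaster* were followed in the RNA of wing imaginal discs, the larval tissues that give rise to the adult wings. Members were all genes of the count table with a FlyBase symbol made of *Prosalpha*, *Prosbeta*, *Rpn* or *Rpt* and a number, which gave 48 of 17478 genes. Of these, 32 were canonical subunit genes and 16 were paralogs, named after a canonical gene with the suffix R or T. The canonical genes comprised 14 genes of the core particle, with 7 alpha and 7 beta subunits, and 18 genes of the regulatory particle. The regulatory particle was divided into 6 ATPases of the base (*Rpt1* to *Rpt6*), 4 other subunits of the base (*Rpn1*, *Rpn2*, *Rpn10* and *Rpn13*) and 8 subunits of the lid (*Rpn3*, *Rpn5*, *Rpn6*, *Rpn7*, *Rpn8*, *Rpn9*, *Rpn11* and *Rpn12*).

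The proteasome is the large protease that degrades proteins tagged with ubiquitin. Its barrel-shaped core particle is built from stacked rings of alpha and beta subunits and encloses the peptidase sites, while the regulatory particle binds the ubiquitin chain, removes it, unfolds the substrate with its ATPases and feeds it into the barrel. In flies, several subunits also have a gene copy that is known to be expressed mainly in the male germ line.

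Polyadenylated RNA was sequenced from 3 samples of discs of genotype *UAS-CycGΔP, da-Gal4/+* (*CycGΔP* discs) and from 3 samples of *da-Gal4/+* discs (control discs). Both groups thus carried the *da-Gal4* driver, in which the yeast activator Gal4 is made in all tissues of the larva, and differed by the *UAS-CycGΔP* transgene, which encodes Cyclin G without its PEST domain, a type of sequence known to shorten the life of proteins. One of the submitters' protocols writes the first genotype as *da-Gal4/UAS-CycGΔP*. Every sample pooled 150 discs of larvae of the third instar, labelled as female and raised at 25 °C without treatment, and the replicates came from independent crosses.

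Between 21853360 and 40059450 reads were counted per library. Expression is given as CPM, the counts relative to the library total after TMM normalization. The targeted gene, *CycG* (FBgn0039858), had 1022, 1012 and 900.2 CPM in *CycGΔP* discs, against 723, 788 and 686 CPM in control discs. The groups did not overlap, and the log2 fold change of 0.42 missed the threshold (edgeR adjusted p = 0.0909, standard error 0.088). Reads of the transgene and of the endogenous gene are not told apart in this count, so the level of the transgene RNA alone is not known. The 7 wing disc epithelium markers found in the table (*nub*, *vg*, *ap*, *rn*, *sd*, *en* and *ci*) summed to 2058 to 2225 CPM in *CycGΔP* libraries and 1898 to 2202 CPM in control libraries. Of 3 genes of male dosage compensation, the RNA *roX1*, which is made in males, stood at 2.90, 4.85 and 3.35 CPM in *CycGΔP* libraries, against 47.5, 38.7 and 14.0 CPM in control libraries. Reads of *roX2*, the other such RNA, were counted in no *CycGΔP* library, where the limit of 3 counts is 0.105 to 0.142 CPM per library, and at 0.279 to 1.60 CPM in the 3 control libraries. The third gene, *msl-2*, had 37.4, 34.3 and 33.8 CPM in *CycGΔP* libraries, against 41.3, 43.4 and 35.3 CPM in control libraries, which overlap. All libraries are labelled as female. Reads of *roX1* were counted in every library, at lower levels in *CycGΔP* libraries (log2 fold change -3.18, edgeR adjusted p = 0.0613). As *roX* reads went against this label most in the control libraries, and in each of them, none of these could be set aside for it. The 4 fat body markers (*Lsp1beta*, *Lsp2*, *Fbp1* and *Fbp2*) summed to 3959, 5925 and 5502 CPM in *CycGΔP* libraries 1, 2 and 3, against 13907, 1404 and 445 CPM in control libraries 1, 2 and 3. The 4 haemocyte markers summed to 26.1 to 161 CPM in *CycGΔP* libraries and 54.8 to 112 CPM in control libraries.

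The canonical subunit genes were abundantly and evenly expressed. Of the 32, 31 passed the expression filter, each with at least 2727 counts in every library, so that counting error was at most 1.91% of any value. The exception was *Prosalpha1*, described at the end of the canonical genes. Levels of different genes were compared as CPM per kb of the longest annotated transcript. On this scale the 13 tested core genes had 167 to 256 CPM per kb in *CycGΔP* discs (median 203) and 191 to 284 CPM per kb in control discs (median 226). The 18 regulatory genes had 98.2 to 204 CPM per kb in *CycGΔP* discs (median 131) and 112 to 198 CPM per kb in control discs (median 143). The core median was thus 1.56 times the regulatory median in *CycGΔP* discs and 1.58 times in control discs.

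The order of levels was similar in both groups. *Prosalpha2*, an alpha ring subunit, had the highest level per kb and *Rpn13*, a ubiquitin receptor of the base, the lowest, in *CycGΔP* discs and in control discs alike. The distance between them was 2.61-fold in *CycGΔP* discs and 2.53-fold in control discs. In each group the 14 highest genes were the 13 core genes and *Rpn11*, the ubiquitin-removing metalloprotease of the lid, which was the one regulatory gene above the lowest core gene. Per kb of coding sequence, the core median was 1.59 times the regulatory median in *CycGΔP* discs and 1.61 times in control discs. The ends of the order depended on the length used: per kb of coding sequence, *Prosalpha4* was highest in *CycGΔP* discs and *Rpn1* lowest in control discs. *Rpn11* and *Rpn9* then exceeded the lowest core gene in *CycGΔP* discs, and no regulatory gene did in control discs. In control discs, per kb of transcript, the members lay between percentile 93.1 (*Rpn13*) and percentile 97.8 (*Prosalpha2*) of the CPM per kb of 9237 tested genes. Among themselves, levels varied by 12.1% (coefficient of variation) over core genes and 18.0% over regulatory genes in *CycGΔP* discs, against 10.4% and 14.8% in control discs.

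**Figure D1:**
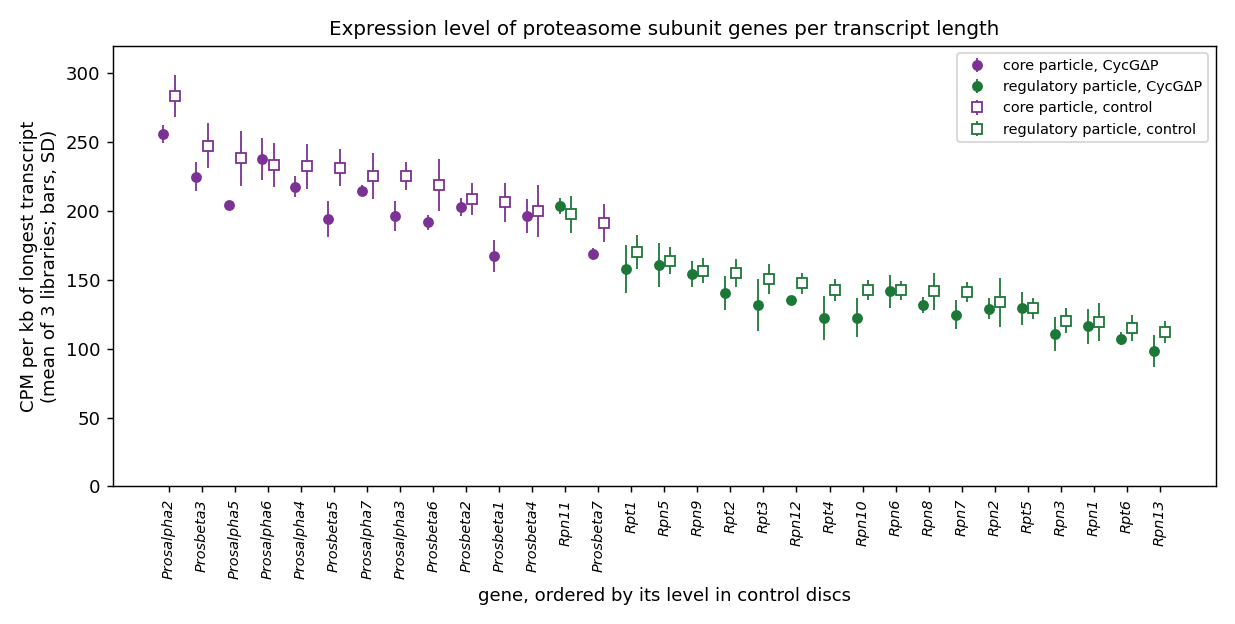
Expression level of the 31 tested canonical subunit genes, in CPM per kb of the longest transcript (vertical axis), ordered by the level in control discs; circles are means of 3 *CycGΔP* libraries, squares means of 3 control libraries, and bars the SD. Core genes lay between 167 and 256 CPM per kb in *CycGΔP* discs and between 191 and 284 in control discs, above all regulatory genes but *Rpn11*.

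To ask whether expression of *CycGΔP* was accompanied by altered expression of these genes, the groups were compared with edgeR's quasi-likelihood test over all 9408 tested genes. No canonical subunit gene was called at an adjusted p-value under 0.05 (0 of 31), where 1.42% of all tested genes were called (0.733% with lower values in *CycGΔP* discs), and limma voom also called none (1.29% of all genes). DESeq2 called 1 member, *Prosbeta1*, without a prior on fold changes (5.44% of all genes called, 3.07% with lower values) and with it (5.56% called, 3.17% with lower values). At an unadjusted p-value under 0.05, edgeR gave 4 of 31 members, all in the core particle and all with lower values in *CycGΔP* discs, against 8.07% of all tested genes in that direction and 14.7% in both directions.

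Small negative differences prevailed among the members. The log2 fold change was below 0 for 29 of 31 genes, whereas it was below 0 for 47.7% of all tested genes and for 44.1% of the 1057 tested genes in the same range of CPM. The median log2 fold change was -0.12 over the 31 genes, -0.15 over the core and -0.11 over the regulatory particle, while that of all tested genes was 0.012. The groups did not overlap for 11 of the 31 genes, all with lower values in *CycGΔP* discs, where 12.1% of all tested genes did so in that direction and 9.98% in the other. These were 8 of 13 core genes and 3 of 18 regulatory genes. Counts from whole discs do not tell fewer cells of a type from less RNA per cell. The spread between replicates was narrow for these genes: their median biological coefficient of variation was 10.2%, against 14.8% for all tested genes and 10.9% for tested genes of the same CPM range. The median standard error of a member's log2 fold change was 0.085, and a two-sided exact permutation test of 1 gene could not reach a p-value below 0.1 in this design.

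**Figure D2:**
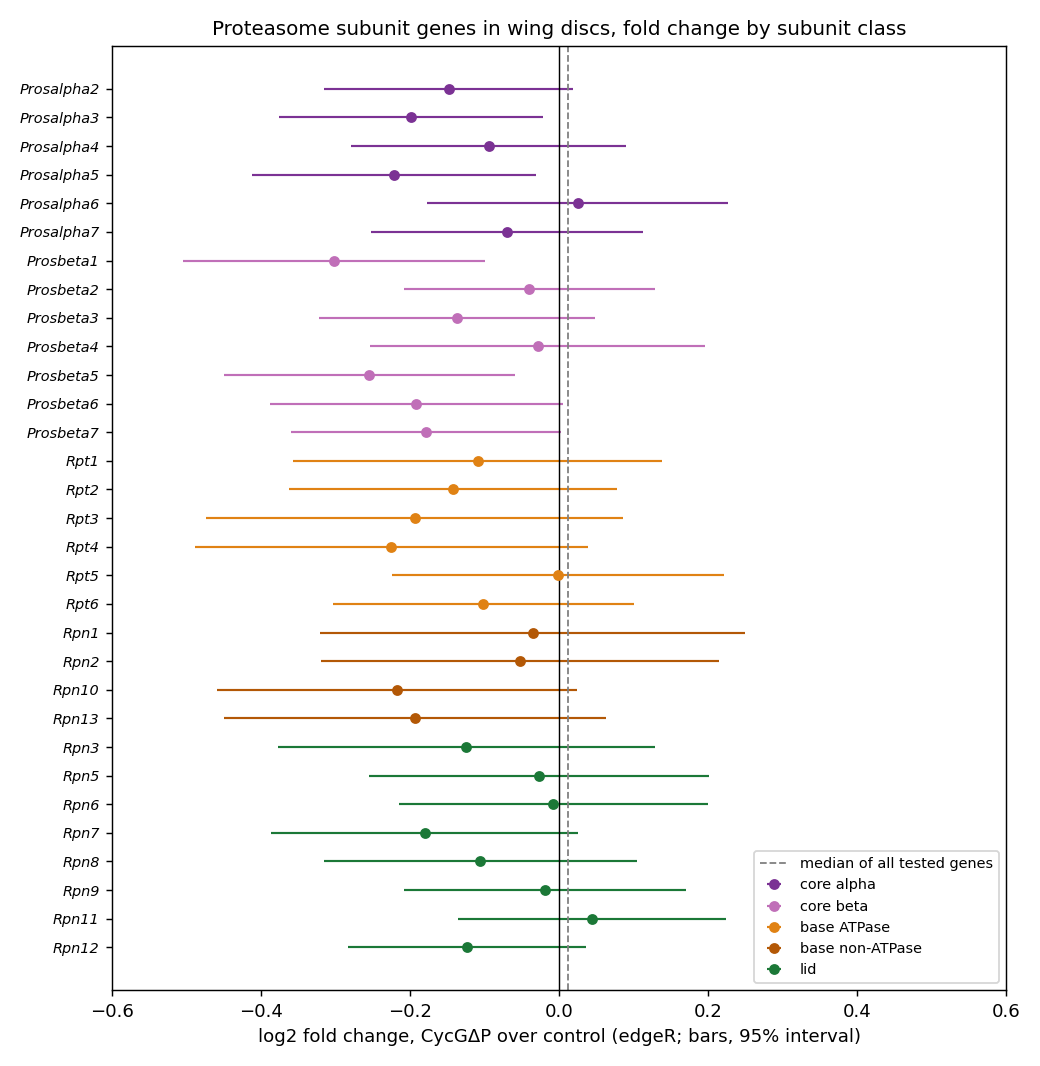
Log2 fold change of each tested canonical subunit gene in *CycGΔP* over control discs (horizontal axis; points, edgeR estimates; bars, 95% intervals), coloured by class, with the median of all tested genes (0.012) as a dashed line. Points lie to the left of 0 for 29 of 31 genes, and the interval excludes 0 for *Prosbeta1*, *Prosbeta5*, *Prosalpha5* and *Prosalpha3*.

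Among the subunits with a peptidase site, the groups were separate for the beta1 and beta5 genes and overlapped for the beta2 gene. *Prosbeta1* (FBgn0010590; chromosome 2R, 16013805 to 16014787, minus strand), which carries the caspase-like site, had 152, 142 and 133 CPM in *CycGΔP* discs, against 169, 169 and 190 CPM in control discs. Every *CycGΔP* library lay below every control library. The log2 fold change was -0.30 (95% interval -0.50 to -0.10, edgeR adjusted p = 0.169), which is a level lower by 18.9% on the fitted scale. DESeq2 gave an adjusted p of 0.0258 without its prior and 0.0251 with it, and over all alternatives the adjusted p of this gene ranged from 0.0251 to 0.463.

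*Prosbeta5* (chromosome 2R, 10819978 to 10821178, plus strand) carries the chymotrypsin-like site. Its levels were 218, 208 and 237 CPM in *CycGΔP* discs, against 250.03, 261 and 280.3 CPM in control discs, again without overlap. The log2 fold change was -0.25 (95% interval -0.45 to -0.06, edgeR adjusted p = 0.214), and DESeq2 without a prior left it just above the threshold (adjusted p = 0.0513). *Prosbeta2* (chromosome 3L, 14999951 to 15001319, plus strand), the trypsin-like subunit, gave 204, 209 and 217 CPM in *CycGΔP* discs, against 208, 210.2 and 229.5 CPM in control discs. These groups overlapped, and the log2 fold change was -0.04 (95% interval -0.21 to 0.13, edgeR adjusted p = 0.819). Whether the 3 peptidase genes differed from one another in their response was not tested.

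The 4 remaining beta genes, *Prosbeta3*, *Prosbeta4*, *Prosbeta6* and *Prosbeta7*, encode ring subunits without a peptidase site. Their log2 fold changes were -0.14, -0.03, -0.19 and -0.18, in that order, and the groups overlapped for *Prosbeta4* only. With a median of -0.18, all 7 beta genes thus lay below 0, and 5 of them without overlap.

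The alpha rings form the entrance of the barrel. *Prosalpha5* (chromosome 2R, 17412767 to 17413769, plus strand) had 181, 183 and 177 CPM in *CycGΔP* discs, against 210.3, 193 and 228 CPM in control discs, with a log2 fold change of -0.22 (95% interval -0.41 to -0.03, edgeR adjusted p = 0.26). *Prosalpha3* (chromosome 2R, 20994900 to 20996118, plus strand), whose yeast counterpart holds the channel gate shut with its tail, had 203, 182 and 188 CPM in *CycGΔP* discs, against 211, 217 and 230.2 CPM in control discs, with a log2 fold change of -0.20 (95% interval -0.38 to -0.02, edgeR adjusted p = 0.275). In both cases each *CycGΔP* library was below each control library. *Prosalpha6*, by contrast, had 245, 245 and 273 CPM in *CycGΔP* discs and 249, 233 and 268 CPM in control discs, which overlapped (log2 fold change 0.025, edgeR adjusted p = 0.916). Of the other alpha genes, *Prosalpha2* (-0.15) did not overlap between groups, while *Prosalpha4* (-0.09) and *Prosalpha7* (-0.07) did.

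**Figure D3:**
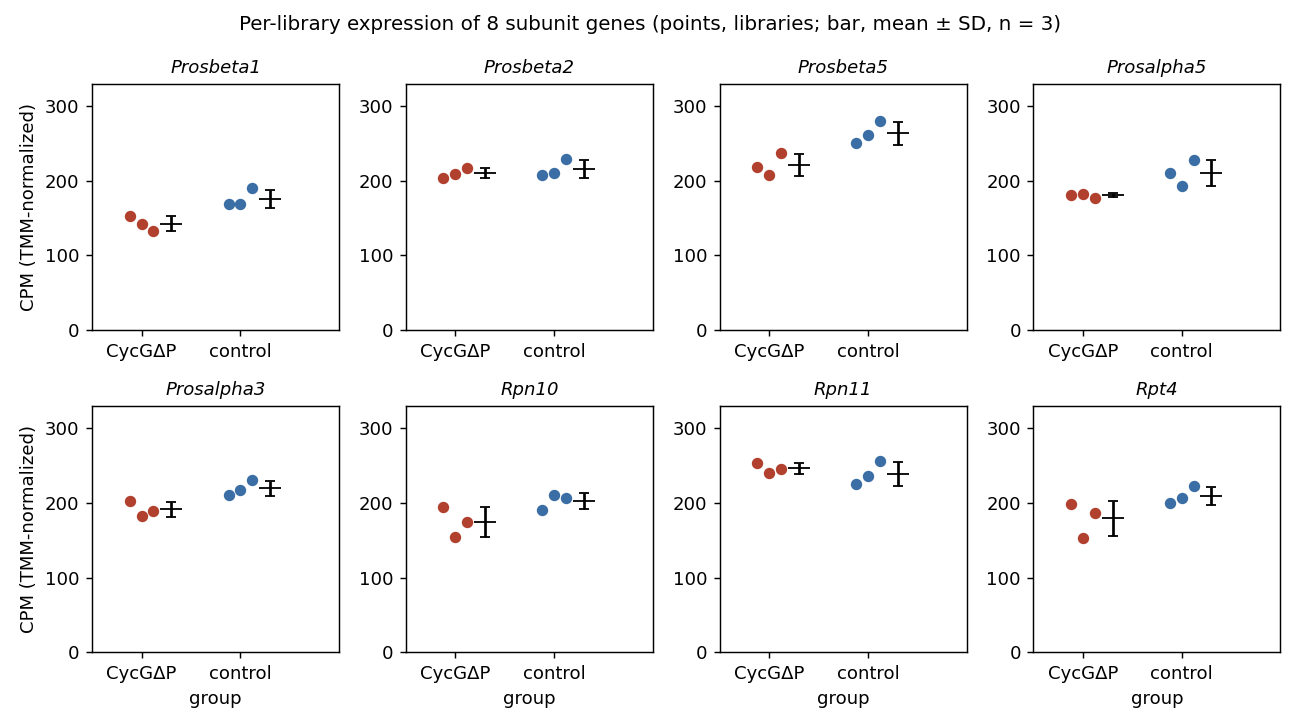
Expression of 8 subunit genes in CPM (vertical axis from 0), with 1 point per library, *CycGΔP* left and control right, and the mean ± SD of 3 libraries beside the points. *Prosbeta1*, *Prosbeta5*, *Prosalpha5*, *Prosalpha3* and *Rpt4* show no overlap between groups, whereas *Prosbeta2*, *Rpn10* and *Rpn11* do overlap.

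Within the regulatory particle, the values of the groups overlapped for 15 of 18 genes, and edgeR adjusted p-values ranged from 0.381 to 0.997. The 6 ATPase genes had log2 fold changes from -0.23 to -0.0014, with a median of -0.13, which was -0.20 without *CycGΔP* replicate 1 or control replicate 1, and -0.080 without *CycGΔP* replicate 2. *Rpt4* (chromosome X, 6289470 to 6291245, minus strand) lay at the lower end, with 198, 153 and 187 CPM in *CycGΔP* discs, against 199.6, 206 and 222 CPM in control discs. It was the only ATPase gene without overlap, although *CycGΔP* library 1 came within 2 CPM of control library 1 (edgeR adjusted p = 0.404). At the upper end, *Rpt5* showed no difference between means (log2 fold change -0.0014, 95% interval -0.22 to 0.22).

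The receptors that catch ubiquitinated substrates gave mixed values. *Rpn10*, which binds ubiquitin through a short interacting motif, had 195, 154 and 175 CPM in *CycGΔP* discs, against 191, 211 and 207 CPM in control discs (log2 fold change -0.22, edgeR adjusted p = 0.381). *Rpn13* had 165, 129.6 and 146 CPM in *CycGΔP* discs, against 154, 176 and 174 CPM in control discs (log2 fold change -0.19, edgeR adjusted p = 0.454). Both overlapped between groups, with *CycGΔP* library 1 among the control values. Without *CycGΔP* replicate 2 the log2 fold change was -0.14 for *Rpn10* and -0.11 for *Rpn13*, and without *CycGΔP* replicate 1 that of *Rpn13* was -0.29. *Rpn1*, the large scaffold that also docks ubiquitin shuttles, had 395, 317 and 349 CPM in *CycGΔP* discs, against 321, 405 and 362 CPM in control discs, and its log2 fold change of -0.036 (edgeR adjusted p = 0.914) turned positive without *CycGΔP* replicate 2 (0.037) or without control replicate 2 (0.035). *Rpn2*, the other large scaffold, was likewise close to 0 (-0.05).

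The lid genes were nearest to 0, with a median log2 fold change of -0.067. *Rpn11* (chromosome 2L, 5058404 to 5059790, minus strand), which cleaves the ubiquitin chain from the substrate, had 254, 239.6 and 245 CPM in *CycGΔP* discs, against 225, 236 and 256 CPM in control discs. It had the highest log2 fold change of the canonical genes (0.04, edgeR adjusted p = 0.818), which became -0.019 without control replicate 1. The scaffold subunits *Rpn7* (-0.18) and *Rpn12* (-0.12) were the lid genes without overlap between groups. *Rpn5*, *Rpn6* and *Rpn9* lay between -0.03 and -0.0080.

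Core and regulatory genes were then compared library by library. For each library, the log2 CPM of every gene was set against its mean over the control libraries and averaged over each particle. The core average was -0.15, -0.15 and -0.12 in *CycGΔP* libraries 1, 2 and 3, against -0.029, -0.077 and 0.11 in control libraries 1, 2 and 3, so that the groups did not overlap. The regulatory average was -0.026, -0.21 and -0.068 in *CycGΔP* libraries, against -0.098, 0.034 and 0.063 in control libraries, and here they overlapped. The difference between both averages was -0.12, 0.060 and -0.049 in *CycGΔP* libraries, against 0.069, -0.11 and 0.042 in control libraries, which overlap throughout. The medians of both particles differed by -0.041 (core minus regulatory), and without *CycGΔP* replicate 1 this difference was 0.00053.

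Many genes of a particle shared their highest and lowest libraries. Within *CycGΔP* discs, the median SD of a gene's log2 CPM was 0.049 over core genes and 0.13 over regulatory genes, while in control discs it was 0.099 and 0.097. All 6 ATPase genes were highest in *CycGΔP* library 1 and lowest in *CycGΔP* library 2 among the *CycGΔP* libraries. Likewise, 15 of 18 regulatory genes were lowest in *CycGΔP* library 2, against 3 of 13 core genes. Among control libraries, all 13 core genes were highest in library 3, and 17 of 18 regulatory genes were lowest in library 1. As a share of all counts, the 31 genes took 0.675, 0.619 and 0.687% in *CycGΔP* libraries, against 0.696, 0.737 and 0.790% in control libraries.

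The sum of the 4 fat body markers ran in the opposite order to the mean of all 31 genes within each group. It also ran opposite to the mean of the regulatory genes. This was not so for the mean of the core genes, which was highest in *CycGΔP* library 3 and lowest in control library 2 of its group. Among the single markers, *Lsp1beta* departed from the order of the sum, with 1154 CPM in *CycGΔP* library 2 and 1272 CPM in *CycGΔP* library 3. *CycGΔP* library 2, with the highest sum of its group (5925 CPM), had the lowest mean of the members (-0.19), and *CycGΔP* library 1, with the lowest sum (3959 CPM), had the highest (-0.078). Control library 1, with the highest sum of fat body markers (13907 CPM), had the lowest mean of the members (-0.069), and control library 3, with the lowest sum (445 CPM), had the highest (0.081). Across both groups the order did not hold: control library 1 had the highest sum of all libraries, but a mean above that of every *CycGΔP* library. This comparison was not among those planned. Without control replicate 1 the median log2 fold change of the 31 genes was -0.18, and without control replicate 3 it was -0.084, with 23 of 31 genes below 0 and 1 gene at an unadjusted p-value under 0.05. That last number was 7 without *CycGΔP* replicate 1 and 2 without *CycGΔP* replicate 3. The share of all tested genes at that threshold was not computed for these fits, so a change over all genes cannot be told from one in the members. The part of fat body RNA in these values, and that of the *roX* difference, was not tested. The 4 canonical genes on chromosome X, *Prosalpha4*, *Rpt3*, *Rpt4* and *Rpt6*, had log2 fold changes from -0.23 to -0.09, within the range of the other members.

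**Figure D4:**
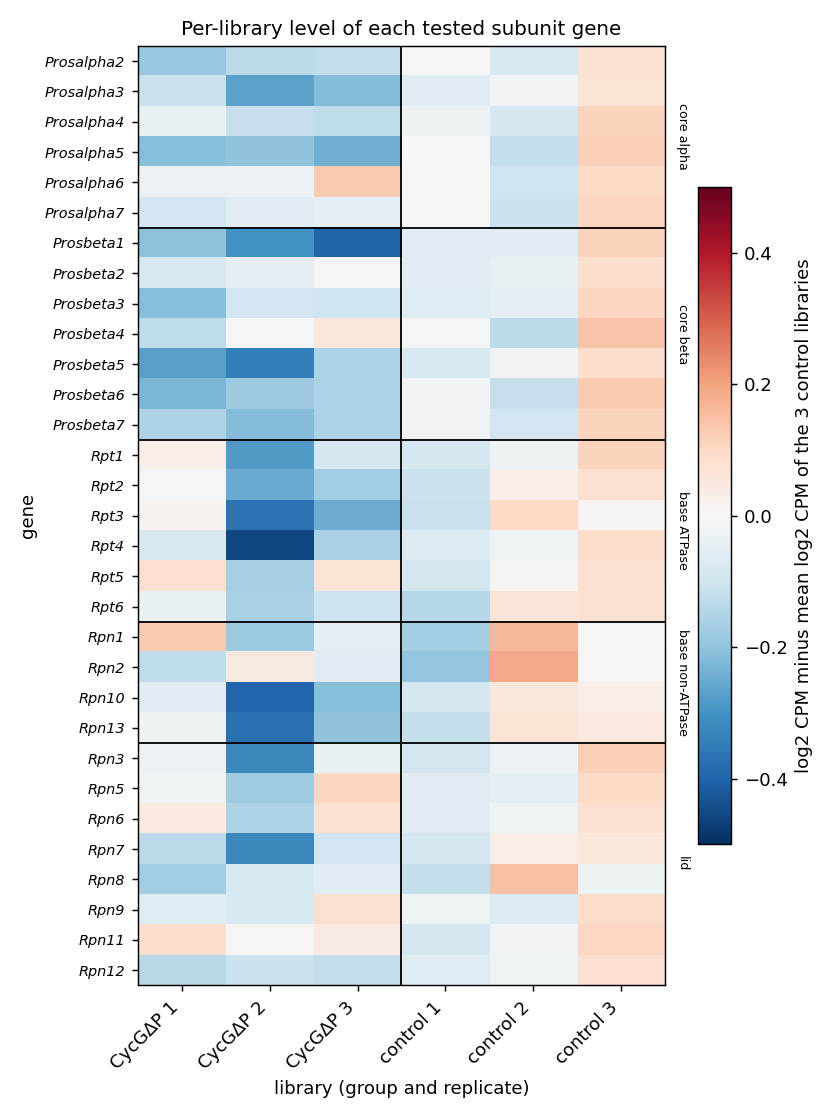
Level of each tested canonical subunit gene in each library, as log2 CPM minus the mean log2 CPM of the 3 control libraries (colour; blue, lower; red, higher), with genes grouped by class and *CycGΔP* libraries left of control libraries. The core genes are blue in most *CycGΔP* cells, with averages of -0.15, -0.15 and -0.12, whereas the regulatory genes are darkest in *CycGΔP* library 2, with an average of -0.21.

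*Prosalpha1* (chromosome 2R, 7827303 to 7828678, minus strand) had 1 count in each *CycGΔP* library, against 0, 1 and 0 counts in control libraries 1, 2 and 3. Its paralog *Prosalpha1R* (7830413 to 7831771, same strand) had none in any library. The genes are neighbours, separated by 1734 bp. Their coding sequences are both 732 bp long, with coding exons of 76, 177 and 479 bp and coding introns of 62 and 288 bp in each. Only reads that mapped unambiguously were counted. The sequences of both genes were not compared here, and whether reads that matched both were lost was not tested. The levels of *Prosalpha1* and of *Prosalpha1R* are therefore uncertain. Exons of 7 other canonical genes share more than 5% of their bases with a gene on the opposite strand: *Rpn9* (15.7%), *Rpt6* (13.0%), *Prosbeta2* (7.93%), *Rpt2* (7.14%), *Prosbeta5* (7.11%), *Rpt4* (6.35%) and *Rpn7* (6.32%). Whether strand was used in the counting is not given in the sources used here, so these values are uncertain to that extent. The median log2 fold change without them was -0.12.

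The paralogs gave almost no reads. Of 16 genes, 8 had no read in any library: *Prosalpha1R*, *Prosalpha4T2*, *Prosalpha6T*, *Prosbeta4R1*, *Prosbeta4R2*, *Prosbeta5R1*, *Rpn12R* and *Rpt4R*. A count of 0 allows up to 3 counts, which is 0.105 to 0.142 CPM in *CycGΔP* libraries and 0.0736 to 0.104 CPM in control libraries. For *Prosalpha1R* this limit does not cover reads that may have been lost because they also matched *Prosalpha1*, which was not tested. A further 4 had from 1 to 3 reads over all 6 libraries: *Prosalpha3T* (1), *Prosalpha4T1* (1), *Prosbeta5R2* (2) and *Prosbeta2R1* (3). *Prosbeta2R2* had 1, 2 and 4 counts in *CycGΔP* libraries, against 5, 4 and 4 counts in control libraries. Thus 13 of the paralogs did not pass the expression filter, while 3 of them, *Rpt3R*, *Rpt6R* and *Rpn13R*, did.

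*Rpt3R* (chromosome 3R, 9754735 to 9756510, minus strand) was the most abundant paralog with 910 reads over the 6 libraries. It had 115, 93 and 138 counts in *CycGΔP* libraries, against 181, 221 and 162 counts in control libraries, or 4.38, 4.42 and 4.82 CPM against 5.79, 5.42 and 5.64 CPM. The groups did not overlap, but the difference did not pass the test (log2 fold change -0.31, standard error 0.145, edgeR adjusted p = 0.384). Per kb, its canonical counterpart *Rpt3* was 41.6 times as abundant in *CycGΔP* discs and 38.4 times in control discs. *Rpt6R* (chromosome 3R, 30582198 to 30583697, minus strand) had 12, 8 and 13 counts in *CycGΔP* libraries, against 20, 25 and 18 counts in control libraries, without overlap in CPM either (log2 fold change -0.53, edgeR adjusted p = 0.50), and *Rpt6* exceeded it per kb by 360-fold in *CycGΔP* discs and 265-fold in control discs. *Rpn13R* (chromosome X, 5131898 to 5132985, plus strand) varied widely, with 4, 33 and 19 counts in *CycGΔP* libraries, against 8, 0 and 10 counts in control libraries. These overlapped, and the log2 fold change of 1.99 had a standard error of 1.22 (edgeR adjusted p = 0.495). At counts this low the standard errors were large (0.335 for *Rpt6R*), and differences of the size seen in *Rpt6R* and *Rpn13R* did not pass the test. How large a difference would have passed was not computed.

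Of 17 markers of the male germ line, 4 passed the expression filter and 13 did not. *mia* had 459 to 794 counts per library, *twe* 156 to 316, *bol* 42 to 87 and *fzo* 5 to 92. By contrast, *nht*, which is specific to spermatocytes, had no read. The defining spermatocyte genes *aly* and *can* had at most 1 read in a library and *betaTub85D*, the testis beta-tubulin, at most 2. Summed over the list, expression was 29.9 to 39.7 CPM in *CycGΔP* libraries and 30.0 to 33.5 CPM in control libraries, of which *mia* took 19.3 to 21.8 CPM in *CycGΔP* and 19.5 to 21.9 CPM in control libraries.

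**Figure D5:**
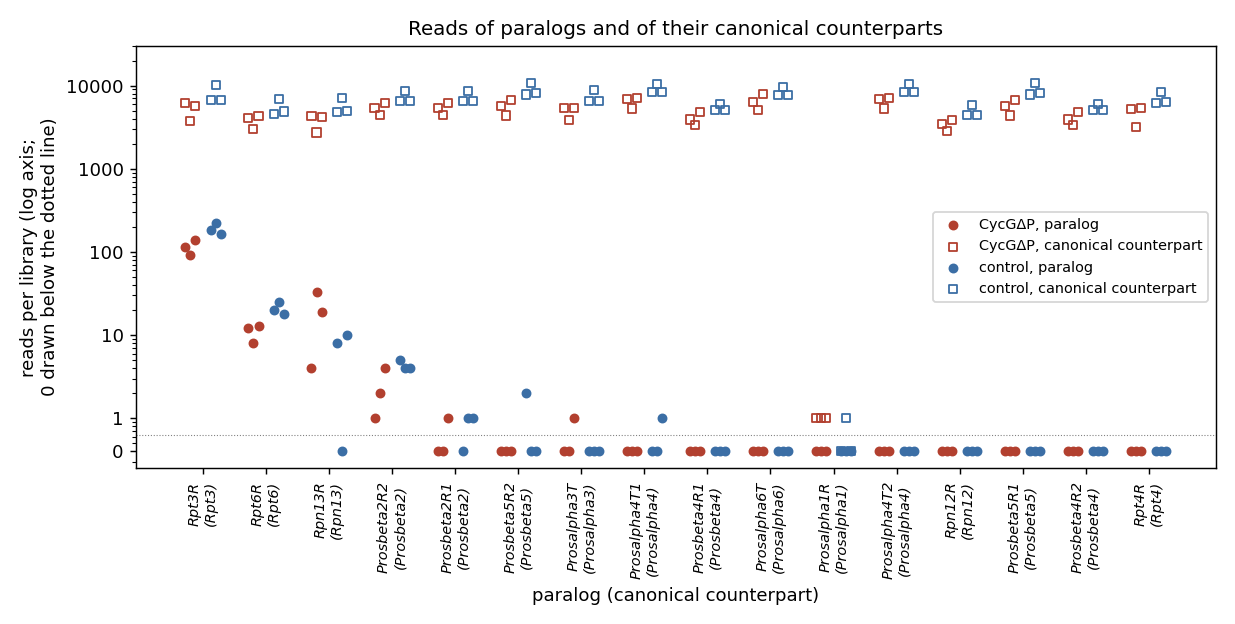
Reads per library (logarithmic axis, with 0 drawn below the dotted line) of the 16 paralogs (filled circles) and of their canonical counterparts (open squares), with *CycGΔP* libraries in red and control libraries in blue. Among pairs whose counterpart has appreciable reads, *Rpt3R* is the paralog nearest to its counterpart. It has 93 to 138 counts in *CycGΔP* and 162 to 221 in control libraries, while 8 paralogs are at 0 throughout. *Prosalpha1*, the counterpart of *Prosalpha1R*, is the one counterpart without appreciable reads.

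Other genes of the pathway were taken from a list of 20, of which 19 were found in the table and tested. EdgeR called none of them (1.42% of all tested genes), and DESeq2 called 2, *Pomp* and *RpL40* (5.44% of all genes without a prior, 5.56% with it). At an unadjusted p-value under 0.05, 3 genes had higher values in *CycGΔP* discs, against 6.65% of all tested genes, and 1 had lower values, against 8.07%. The median log2 fold change of the list was 0.015, with 8 of 19 genes below 0.

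*Pomp*, the chaperone that helps to assemble the core particle, gave the most negative value of the list. It had 78.3, 66.6 and 63.1 CPM in *CycGΔP* discs, against 87.4, 105 and 97.9 CPM in control discs, without overlap. The log2 fold change was -0.48 (95% interval -0.74 to -0.22, edgeR adjusted p = 0.110), and the adjusted p was 0.00519 by DESeq2 without a prior. The other subunits and regulators of the particle had values closer to 0, from -0.10 for the small lid subunit *Sem1* to 0.10 for the deubiquitinase *Usp14* and 0.16 for *ntc*, and the groups overlapped for each.

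Of the 4 genes that encode ubiquitin, 3 had higher values in every *CycGΔP* library than in any control library, as had 9.98% of all tested genes. *RpL40*, whose product is ubiquitin fused to a ribosomal protein, had 2044, 2136 and 2163 CPM in *CycGΔP* discs, against 1739.8, 1589 and 1793 CPM in control discs (log2 fold change 0.31, edgeR adjusted p = 0.119; DESeq2 adjusted p = 0.00124 without a prior). *RpS27A*, the other fusion gene, had 3217, 3276 and 3393 CPM in *CycGΔP* discs, against 2896, 2391 and 2973 CPM in control discs (log2 fold change 0.26, edgeR adjusted p = 0.277). The polyubiquitin gene *Ubi-p5E* had 213, 162 and 215 CPM in *CycGΔP* discs, against 158, 133 and 147 CPM in control discs (log2 fold change 0.43, edgeR adjusted p = 0.197). The groups overlapped for the other polyubiquitin gene, *Ubi-p63E* (0.015), and for the ubiquitin-activating enzyme *Uba1* (-0.07).

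The transcription factor *cnc*, whose mammalian relative is known to induce proteasome genes, had 147, 201 and 149 CPM in *CycGΔP* discs, against 141, 146 and 135 CPM in control discs. The *CycGΔP* values were all above the control values by a narrow margin (log2 fold change 0.24, edgeR adjusted p = 0.458). Its partner *maf-S* had lower values in *CycGΔP* discs, also without overlap (log2 fold change -0.16, edgeR adjusted p = 0.355). *Keap1*, *rngo* and *Pngl*, and *Ufd1* and *Npl4* of the unfolding complex, overlapped between groups.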

How the data were processed

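Wing disc RNA was measured in 3 *CycGΔP* and 3 control samples, as given by the labels. The authors aligned single reads of 50 bp, from a stranded kit, to dm6 with TopHat2 2.0.10, assigned unambiguously mapped reads to Ensembl genes with summarizeOverlaps, and deposited whole-number counts per gene without normalization. They also deposited a table of normalized counts, which was not used here. Symbols, coordinates and lengths came from the Ensembl annotation of BDGP6, and 17219 of 17478 identifiers had a symbol.

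The test was that of edgeR 4.0.16 (R 4.3.3), with TMM factors (0.963 to 1.03), filterByExpr by group, robust quasi-likelihood fits without covariates over all 6 libraries and Benjamini-Hochberg adjustment at 0.05 over 9408 genes. The common biological coefficient of variation was 30.0%. Replicates of a group differed by more than sampling noise (chi-square of at least 40.3 per gene). DESeq2 1.42.0 with and without a prior, limma 3.58.1 voom, RLE and upper-quartile factors, a minimum of 10 counts per sample or of 1 count in total, leaving out each replicate, a block by replicate number, a threshold of 0.01 and levels without length were tried as alternatives. Omitting genes with more than 5% of shared exon bases was added after the data were seen. The fits were also run on simulated data, with changes larger than those of the canonical members, so this run does not bear on changes of their size. Log2 averages per library used no prior count, while the deviations that were correlated between samples used a prior count of 2.

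Members, lists and alternatives were chosen with earlier results of these data known. Named with statistics were members with an unadjusted p under 0.05, *Prosbeta1*, *Prosbeta2*, *Prosbeta5*, *Rpn1*, *Rpn10*, *Rpn13*, *Rpn11*, the 3 highest and 3 lowest tested members, paralogs with reads, *CycG*, and called genes of the pathway list; the other genes given with values were chosen after these were seen. The pathway list held 20 genes, of which *TER94* was not matched by symbol, and neither was *wg* among 8 wing disc markers. The 4 muscle precursor markers summed to 119 to 128 CPM in *CycGΔP* and 102 to 129 CPM in control libraries. Limits of 3 counts cover counting error only. No sequence is shown.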

Additional observations from a re-analysis of the deposited data

How the results depend on the processing

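Over the alternatives run, 158 values of main results kept their call, or stayed within the spread between replicates (counts, within 1.5 times), 6 moved and 2 passed the threshold. One of the 158, core minus regulatory, turned sign within that spread (0.00053 without *CycGΔP* replicate 1). Of the other values, 181 stayed in this sense, 5 moved, 6 turned sign and 2 passed the threshold. DESeq2 with and without a prior called 1 proteasome gene (edgeR, 0) and 2 pathway genes (edgeR, 0), and gave *CycG* a log2 fold change of 0.38 with a prior (adjusted p = 0.000511) and 0.40 without it (adjusted p = 0.00053). Members at an unadjusted p under 0.05 numbered 9 in both DESeq2 fits. The share of all genes at that threshold was not computed for DESeq2, so this number cannot be set against it. With at least 3 reads required in a library, 4 paralogs had reads instead of 8. Ranked by CPM without length, 4 of the 10 highest members per kb were still among the 10 highest. Leaving out each replicate in turn, the median log2 fold change ranged from -0.18 to -0.084 over the 31 tested canonical genes, from -0.20 to -0.11 over the core, from -0.18 (without control replicate 1) to -0.065 (without control replicate 3) over the regulatory particle, from -0.20 to -0.080 over the ATPases, from -0.20 to -0.085 over the base and from -0.12 to -0.013 over the lid (nearest to 0 without *CycGΔP* replicate 2), and core minus regulatory from -0.090 to 0.00053. Between 23 and 30 members were below 0. Signs turned for *Rpn1* (-0.13 to 0.037), *Prosalpha6* (-0.040 to 0.074, negative without *CycGΔP* replicate 3, -0.030, or control replicate 2), *Rpn11* (-0.019 to 0.095) and *Prosbeta2* (-0.086 to 0.0032, positive without control replicate 3); the causes were not tested. Deviations of samples with the same replicate number correlated at -0.116, -0.292 and -0.154 across genes, so the numbers were not taken as pairs, and no sample correlated best with its own number; with the replicate block the median over all members was -0.12, 29 were below 0 and none was called. With 3 counts per library as the limit, no lower level of the 8 paralogs at 0 could be read in a single library. A limit over the pooled libraries was not computed.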

Other observations

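The order of the 6 libraries by CPM was the same for *Rpn13R* and for *fzo*, a mitochondrial fusion gene known from spermatids; this likeness was chosen after the values were seen, and male germ line RNA was not tested as its source. *Rpn13R* had 0.152, 1.57 and 0.663 CPM in *CycGΔP* libraries 1, 2 and 3, against 0.256, 0 and 0.348 CPM in control libraries 1, 2 and 3. *fzo* had 0.495, 4.37 and 1.22 CPM in *CycGΔP* libraries, against 0.799, 0.123 and 0.801 CPM in control libraries, with a log2 fold change of 1.82 (edgeR adjusted p = 0.448). Both were highest in *CycGΔP* library 2 and lowest in control library 2. In *sa*, a spermatocyte gene with 3 to 26 counts per library, the same libraries held the ends, at 1.24 CPM in *CycGΔP* library 2 and 0.0736 CPM in control library 2. Other markers of the male germ line did not share this pattern. *topi* was highest in *CycGΔP* library 1 (0.686 CPM) and lowest in *CycGΔP* library 3 (0.105 CPM). *twe* was highest in control library 1 (8.18 CPM) and lowest in *CycGΔP* library 1 (6.59 CPM). *bol* was highest in *CycGΔP* library 2 (4.14 CPM) but lowest in *CycGΔP* library 3 (1.47 CPM). Both *Rpn13R* and *fzo* overlapped between groups.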
